A study of Mus musculus with 4 samples.

Results

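A set of 90 genes of detoxification and antioxidant defence, of 21971 genes in the count table, was followed through the TGFβ response of a mouse mammary epithelial line. They were taken by name alone: every gene whose mouse symbol marks a glutathione S-transferase (Gst, Mgst), UDP-glucuronosyltransferase (Ugt), sulfotransferase (Sult), epoxide hydrolase (Ephx), aldehyde dehydrogenase (Aldh) or aldo-keto reductase (Akr), together with Nqo1, Hmox1, Gclc, Gclm, Txnrd1 and Srxn1. Of 91 matching rows, 1 pseudogene was left out. The rule used no measured value, but these families were picked for study with earlier results of the same libraries known.

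The cells were NMuMG, an established line from mouse mammary gland. All 4 libraries overexpressed a construct: mutated human TRF1 (TRF1ΔN), a protein of telomeres, in 2 of them, and the same protein joined to the viral activation domain Vp16 (Vp16-TRF1ΔN) in the other two. Each line was sampled at 0 h, without TGFβ, and at 24 h with TGFβ at 5 ng/ml. Each of the 4 groups was therefore 1 library, no group had a replicate, and cells without a construct were not analysed here. A 24 h library without TGFβ was not analysed here, so TGFβ and the hours in culture cannot be told apart. Whether a line was a clone or a pool is not given in the sources used here.

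Detoxifying enzymes are commonly ordered by the step they perform. Aldehyde dehydrogenases, aldo-keto reductases and epoxide hydrolases oxidise, reduce or hydrolyse reactive carbonyls and epoxides, and transferases then attach glutathione, glucuronic acid or sulfate so that the product can be exported. Many of these genes, and the enzymes that make glutathione and repair oxidised proteins, are activated by the transcription factor NRF2 (gene Nfe2l2), which KEAP1 holds at a low level in unstressed cells.

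The libraries held 35423556 to 46001039 counts. Levels are given as CPM, counts scaled to a common library size, in which 3 counts, taken as the floor for a count of 0, equal 0.0630 to 0.0875 CPM. The Vp16 row followed the labels, with 0 and 1 counts in the TRF1ΔN line and 15 and 27 in the Vp16-TRF1ΔN line, at 0 h and 24 h. The TRF1ΔN row held 1863, 7798, 123 and 159 counts in the same order of libraries. Construct RNA thus differed between the lines beyond the presence of Vp16, and its part in any difference between lines was not tested. Mitochondrially encoded genes took 10.2% and 13.3% of counts in the TRF1ΔN line and 11.4% and 15.7% in the Vp16-TRF1ΔN line. With them left out, 5 of 69 tested detoxification genes were called higher with TGFβ and 49 lower, by the edgeR test described below. Of all 14309 genes tested in that fit, 3237 rose and 3814 fell. Of the defining luminal genes, Krt8 and Krt18 lay between 1574 and 3921 CPM in all libraries, whereas Epcam had 4 to 18 counts, Esr1, Elf5 and Prlr had 6 counts or fewer, and Csn2 had at most 3 counts or no row.

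The enzyme genes fell broadly with TGFβ in both lines. In an additive model over both lines, tested with edgeR's quasi-likelihood test and called at a Benjamini-Hochberg adjusted p under 0.05, 48 of the 70 genes that passed the filter on low counts fell (68.6%, against 25.4% of all 14305 genes tested) and 5 rose (7.14%, against 23.1%). Of all tested genes, 10.4% fell by at least 2-fold and 8.61% rose by as much, beside 39 (55.7%) and 3 (4.29%) of these. Each of the 48 had a ratio below 1 in both lines. The remaining 20 of the 90 genes never exceeded 18 counts and were not tested. A gene can pass the filter through the libraries in which it is high, so these counts describe the genes measured and not the whole families. Among the 56 that averaged 1 CPM or more, the median log2 change was -1.08, against -0.02 over 11777 genes at that level.

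**Figure D1:**
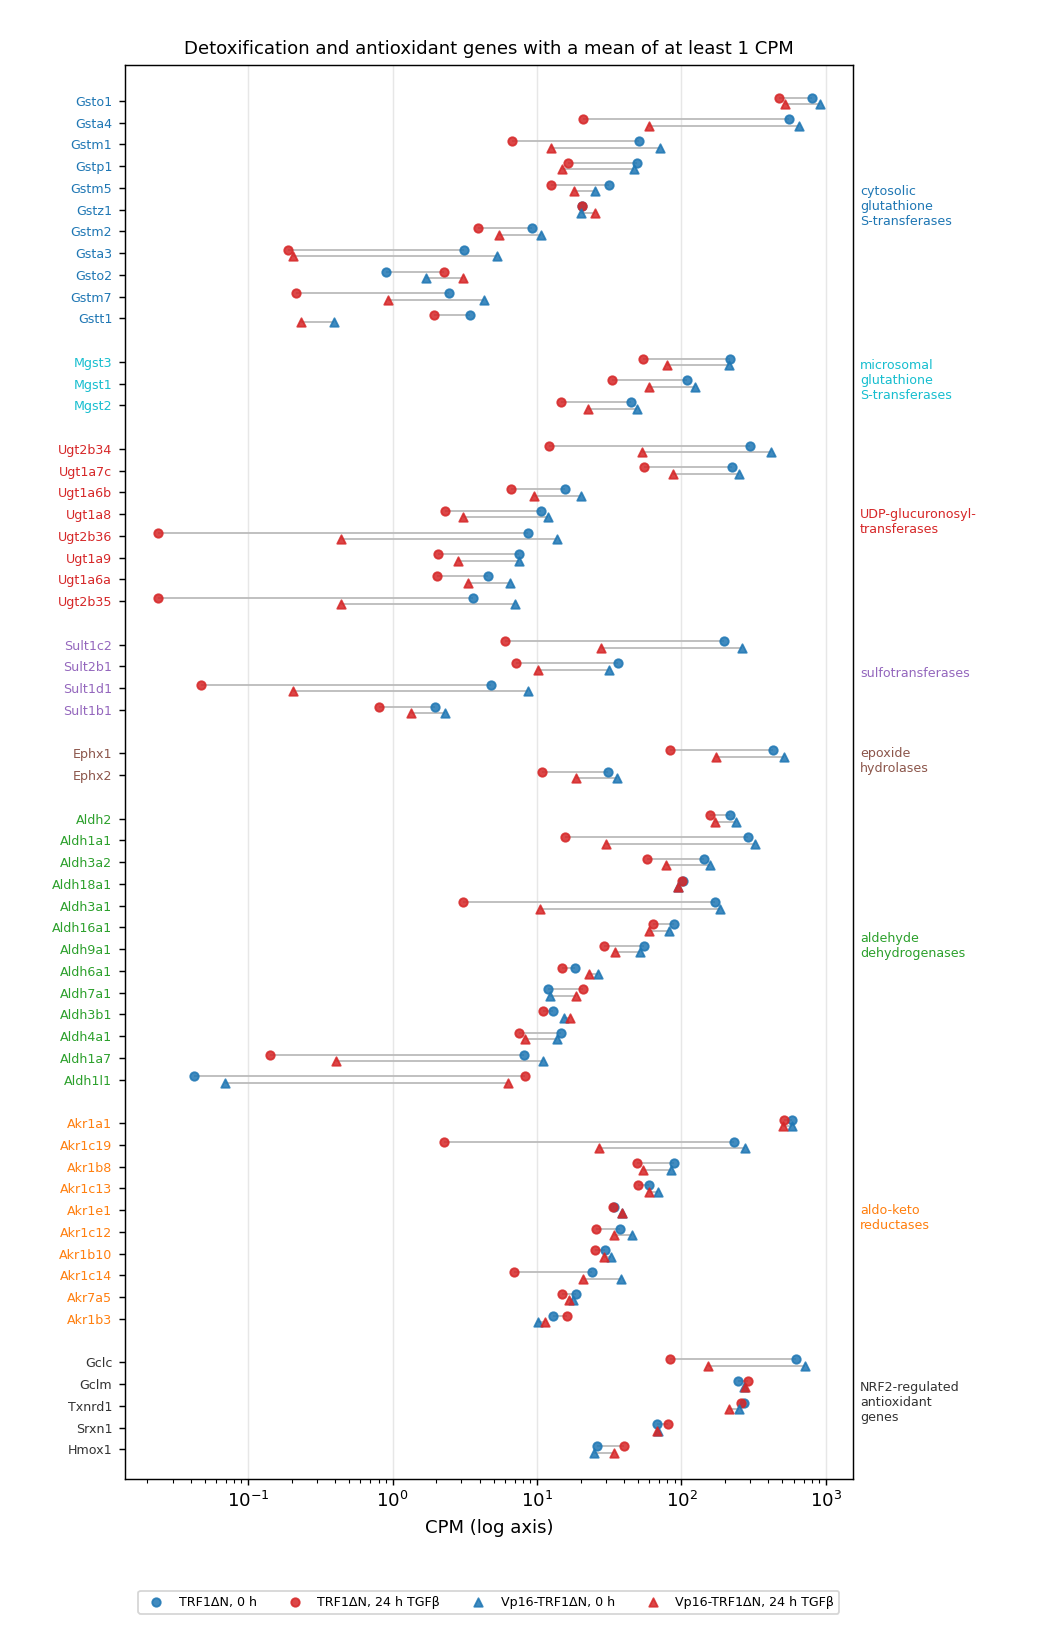
CPM on a log axis of the 56 genes that averaged 1 CPM or more, by family; circles are the TRF1ΔN line, triangles the Vp16-TRF1ΔN line, blue 0 h, red 24 h of TGFβ, and each grey line joins the libraries of a line. Red points lie left of blue for most genes, as in Akr1c19 (230.5 to 2.28 CPM in TRF1ΔN). Red lies right of blue in both lines for Aldh1l1, Gsto2, Aldh7a1 and Hmox1, which were called higher. It also does for some genes not called, such as Gclm, Akr1b3 and Gstz1.

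Summed over the 90 genes, the level was 6663 CPM untreated and 2824 CPM after TGFβ in TRF1ΔN cells, and 7462 and 3313 CPM in Vp16-TRF1ΔN cells. The order of the genes changed as well. Per kilobase of exon, Gsta4 was the highest of them at 0 h in both lines, with 435 and 516 CPM per kb, ahead of Gsto1 with 397 and 447. At 24 h Gsto1 led with 234 and 259 CPM per kb, followed by Akr1a1 with 185 and 184. These levels compare 1 library with another and have no replicate spread.

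Markers of another cell type moved with the enzyme genes. Counts of calls in these small lists stand beside the 25.4% of all tested genes that fell and the 23.1% that rose. Of 8 hepatocyte genes, 7 had a row and all 5 tested fell. The summed level of the list was at 466 CPM without and 92.2 CPM with TGFβ in TRF1ΔN cells, and at 540.5 and 169 CPM in Vp16-TRF1ΔN cells. Most of that sum was Hnf4a, a transcription factor of liver, gut and kidney epithelium, with 446, 92.0, 488 and 169 CPM. Alb had 833, 3, 2057 and 16 counts, Ttr had 77, 2, 149 and 0, and Cyp2e1 had at most 3 counts or no row. The part of these genes in the fall of the enzymes was not tested. The summed level of the 11 luminal genes was 6390, 6214, 6104 and 6213 CPM. Within it Krt19 fell by 3.42 ± 0.44 and Cdh1 by 1.46 ± 0.16 on the log2 scale. Of the 7 tested, 3 rose, 2 fell and 2 were not called, with a median log2 change of 0.10 over the 6 with at least 1 CPM. Fibroblast genes summed to 1.32, 21.3, 1.88 and 11.8 CPM, with both tested genes higher. Summed levels of the basal, immune, endothelial and adipocyte lists stayed at or below 5.44 CPM in every library, with 1 of 3, 1 of 2 and 1 of 1 tested genes of the first 3 rising, 1 basal gene falling and no adipocyte gene tested.

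Among the 20 cytosolic glutathione S-transferases, 10 of 13 tested genes fell, 1 rose and 2 were not called, with a median log2 change of -1.11 over the 11 with at least 1 CPM. Calls in this and the following families stand beside the 25.4% of all tested genes that fell and the 23.1% that rose. Gsta4, an alpha-class enzyme that conjugates the lipid peroxidation product 4-hydroxynonenal (chr9:78182774-78209349, GRCm38), had 551 CPM at 0 h and 20.8 CPM at 24 h in TRF1ΔN cells, against 653 and 59.5 CPM in Vp16-TRF1ΔN cells. Both 24 h values lay far below both 0 h values. The average log2 change was -4.08 ± 0.35 (± SE, edgeR adjusted p = 0.00236). The alpha-class gene Gsta3 had 148 and 8 counts, then 229 and 7 counts, in the same order of lines (log2 change -4.35 ± 0.30, edgeR adjusted p = 0.00150). Its close relative Gsta1 had 89 and 88 counts at 0 h and none at 24 h, which is at least 26.2-fold and 23.3-fold lower against the floor of 3 counts per library. Gsta1 is uncertain as a separate gene, because 90.5% of its 50-base windows also occur in another gene.

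Other classes of this family changed less. The mu-class gene Gstm1 fell by 2.70 ± 0.13 on the log2 scale and the pi-class gene Gstp1 by 1.62 ± 0.08 (edgeR adjusted p = 0.000950 and 0.000942), and both share over 10% of their 50-base windows with another gene. Gsto1, an omega-class enzyme with thiol transferase activity and the highest of the family by mean CPM, went from 804 to 473 CPM and from 905 to 524 CPM (log2 change -0.78 ± 0.06, edgeR adjusted p = 0.00222). Its neighbour Gsto2, which reduces dehydroascorbate, moved in the opposite direction, with 43 and 95 counts, then 73 and 105 counts (log2 change 1.07 ± 0.23, edgeR adjusted p = 0.0219, not called by DESeq2, adjusted p = 0.111). The 2 genes lie within 31 kb of each other (chr19:47854970-47886324). Gstz1, which isomerises maleylacetoacetate in tyrosine breakdown, had 20.5 and 20.6 CPM in TRF1ΔN and 20.1 and 25.01 CPM in Vp16-TRF1ΔN and was not called.

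All 3 microsomal glutathione S-transferases, membrane enzymes that conjugate or reduce lipid hydroperoxides, fell. Mgst3, the highest of them, dropped to 54.1 CPM from an untreated 217 CPM in TRF1ΔN cells, and to 79.9 from 213 CPM in Vp16-TRF1ΔN cells (log2 change -1.71 ± 0.16, edgeR adjusted p = 0.00273). Mgst1 and Mgst2 changed by -1.39 ± 0.18 and -1.36 ± 0.14 on the log2 scale, with edgeR adjusted p-values of 0.00534 and 0.00316.

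Glucuronidation and sulfation genes had the lowest family medians. Of 13 UDP-glucuronosyltransferases tested, 11 fell and 2 were not called (median log2 change -1.93 over 8 genes). All 5 sulfotransferases tested fell (median -3.03 over 4 genes). The summed level of the sulfotransferases was at 240.4 CPM without and 14.3 CPM with TGFβ in TRF1ΔN cells, and at 305 and 39.5 CPM in Vp16-TRF1ΔN cells. Ugt2b34, the highest glucuronosyltransferase, went from 299 to 12.04 CPM and from 419 to 53.4 CPM (log2 change -3.77 ± 0.44, edgeR adjusted p = 0.00448).

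Ugt2b36 and Ugt2b35, of the same steroid-glucuronidating subfamily, were down to 1 count each in the TRF1ΔN line at 24 h. Ugt2b36 had 413 and 1 counts there and 589 and 15 counts in the Vp16-TRF1ΔN line, at 0 h and 24 h, which is 365-fold lower (95% counting interval 65.1 to 14448) and 31.2-fold lower (18.8 to 56.1). Ugt2b35 had 172 and 1 counts, then 305 and 15. Sult1c2, a cytosolic sulfotransferase of phenolic compounds, went from 196 to 6.03 CPM and from 261 to 27.6 CPM (log2 change -4.06 ± 0.47, edgeR adjusted p = 0.00434). Sult1d1, which sulfates catecholamines, had 229 and 2 counts in the TRF1ΔN line and 376 and 7 in the Vp16-TRF1ΔN line, 101-fold lower (27.7 to 840) and 42.7-fold lower (20.5 to 107). Every 24 h value of these genes lay below every 0 h value.

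The 9 Ugt1a genes share their last exons, so their counts cannot be told apart fully. Ugt1a7c held most of the signal, with 223 and 54.6 CPM in the TRF1ΔN line and 251 and 87.0 CPM in the Vp16-TRF1ΔN line (log2 change -1.78 ± 0.14, edgeR adjusted p = 0.00198). With the 9 summed as 1 gene, chosen after seeing the data, 42 of 62 tested genes of the whole set fell and 5 rose. In the fit that kept them apart, 25.4% of all tested genes fell and 23.1% rose.

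Ephx1, the microsomal epoxide hydrolase (chr1:180976210-181020904), had 429 CPM at 0 h and 83.6 CPM at 24 h in TRF1ΔN cells, against 509 and 172 CPM in Vp16-TRF1ΔN cells (log2 change -1.96 ± 0.21, edgeR adjusted p = 0.00355). That is 5.12-fold lower (95% counting interval 4.94 to 5.31) and 2.95-fold lower (2.87 to 3.04). Ephx2, the soluble enzyme that hydrolyses epoxides of fatty acids, fell by 1.22 ± 0.16 on the log2 scale (edgeR adjusted p = 0.00556). Ephx3 had 8 to 15 counts per library and was not called, which makes 2 falls among the 3 tested.

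Aldehyde dehydrogenases were mixed: 8 of 15 tested fell, 3 rose and 4 were not called. Of all tested genes, 25.4% fell and 23.1% rose, so the number that rose was not far from the general share. Aldh1a1, which makes retinoic acid from retinal (chr19:20492715-20643465), dropped to 15.6 CPM from an untreated 291 CPM in TRF1ΔN cells, and to 29.8 from 325 CPM in Vp16-TRF1ΔN cells (log2 change -3.83 ± 0.22, edgeR adjusted p = 0.00115). Aldh1a7, its neighbour and close relative, had 386 and 6 counts, then 475 and 14 (log2 change -5.16 ± 0.29, edgeR adjusted p = 0.00114). Aldh3a1, which clears aldehydes from lipid peroxidation, went from 170.3 to 3.06 CPM and from 184 to 10.6 CPM (log2 change -4.87 ± 0.43, edgeR adjusted p = 0.00255). Mitochondrial Aldh2, which oxidises acetaldehyde, was the highest of the family by mean CPM, at 216 and 158 CPM in the TRF1ΔN line and 238 and 171 CPM in the Vp16-TRF1ΔN line. It fell by 0.47 ± 0.06 on the log2 scale (edgeR adjusted p = 0.00586).

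The genes of this family that rose are a folate enzyme, a lysine catabolism enzyme and another maker of retinoic acid. Aldh1l1, 10-formyltetrahydrofolate dehydrogenase, had 2 and 350 counts in the TRF1ΔN line and 3 and 217 in the Vp16-TRF1ΔN line, at 0 h and 24 h. The ratios were 198 (95% counting interval 54.4 to 1642) and 91.0 (30.7 to 445), and the edgeR adjusted p was 0.000917. Aldh7a1 went from 11.8 to 20.9 CPM and from 12.4 to 18.7 CPM (log2 change 0.71 ± 0.10, edgeR adjusted p = 0.00713). Aldh1a3 (chr7:66390890-66427517) had 6 and 59 counts in the TRF1ΔN line and 7 and 10 in the Vp16-TRF1ΔN line. Its average change was 2.45 ± 0.67 (edgeR adjusted p = 0.0398), and DESeq2, limma and a model without the line term did not call it (adjusted p = 0.148, 0.0769 and 0.0669). Within a line the level was 11.1-fold higher (4.82 to 31.5) in TRF1ΔN and 1.80-fold (0.617 to 5.56) in Vp16-TRF1ΔN, where the interval holds 1.

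Aldo-keto reductases ranged widely, with 7 of 12 tested genes lower, 5 not called and a median log2 change of -0.22 over 10 genes. Akr1c19, a member of the hydroxysteroid dehydrogenase branch (chr13:4228700-4252843), had 10981 and 96 counts in the TRF1ΔN line and 11869 and 925 in the Vp16-TRF1ΔN line, which is 230.5, 2.28, 275 and 27.0 CPM. It was 101-fold lower at 24 h in the first line (95% counting interval 82.7 to 125) and 10.2-fold lower in the second (9.54 to 10.9). Its average log2 change was -4.72 ± 0.85 (edgeR adjusted p = 0.0130). Akr1a1, the aldehyde reductase that is the highest of the family by mean CPM, had 582, 509.9, 580.3 and 507 CPM in the same order and was not called (log2 change -0.19 ± 0.06, edgeR adjusted p = 0.0652).

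Of the 6 antioxidant genes commonly used to read NRF2 activity, 2 fell, 1 rose and 3 were not called, where 25.4% of all tested genes fell and 23.1% rose. The subunits of glutamate-cysteine ligase, which makes the first bond of glutathione, diverged. Gclc, the catalytic subunit (chr9:77754535-77794485), was at 619 CPM without and 83.3 CPM with TGFβ in TRF1ΔN cells, and at 716 and 153 CPM in Vp16-TRF1ΔN cells (log2 change -2.56 ± 0.18, edgeR adjusted p = 0.00166). Gclm, the modifier subunit (chr3:122245557-122270732), had 246 and 287 CPM, then 269 and 276 CPM (log2 change 0.13 ± 0.08, edgeR adjusted p = 0.229). For Gclc the 0 h and 24 h levels were far apart, whereas for Gclm they lay close together, with both 24 h values above both 0 h values.

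Txnrd1, the cytosolic thioredoxin reductase, had 270.0 and 257 CPM in TRF1ΔN and 251 and 213 CPM in Vp16-TRF1ΔN (log2 change -0.15 ± 0.07, edgeR adjusted p = 0.153). Srxn1, which restores oxidised peroxiredoxins, had 67.3 and 80.0 CPM, then 69.3 and 67.5 CPM (log2 change 0.11 ± 0.09, edgeR adjusted p = 0.392). Neither was called, and for each the 0 h and 24 h values overlapped. Hmox1, heme oxygenase, rose from 26.0 to 40.0 CPM and from 24.9 to 34.3 CPM (log2 change 0.54 ± 0.08, edgeR adjusted p = 0.00806). Nqo1, a quinone reductase, was almost silent, with 11 and 1 counts, then 10 and 1. It was called lower by edgeR (adjusted p = 0.0240) and not by DESeq2 (adjusted p = 0.268).

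**Figure D2:**
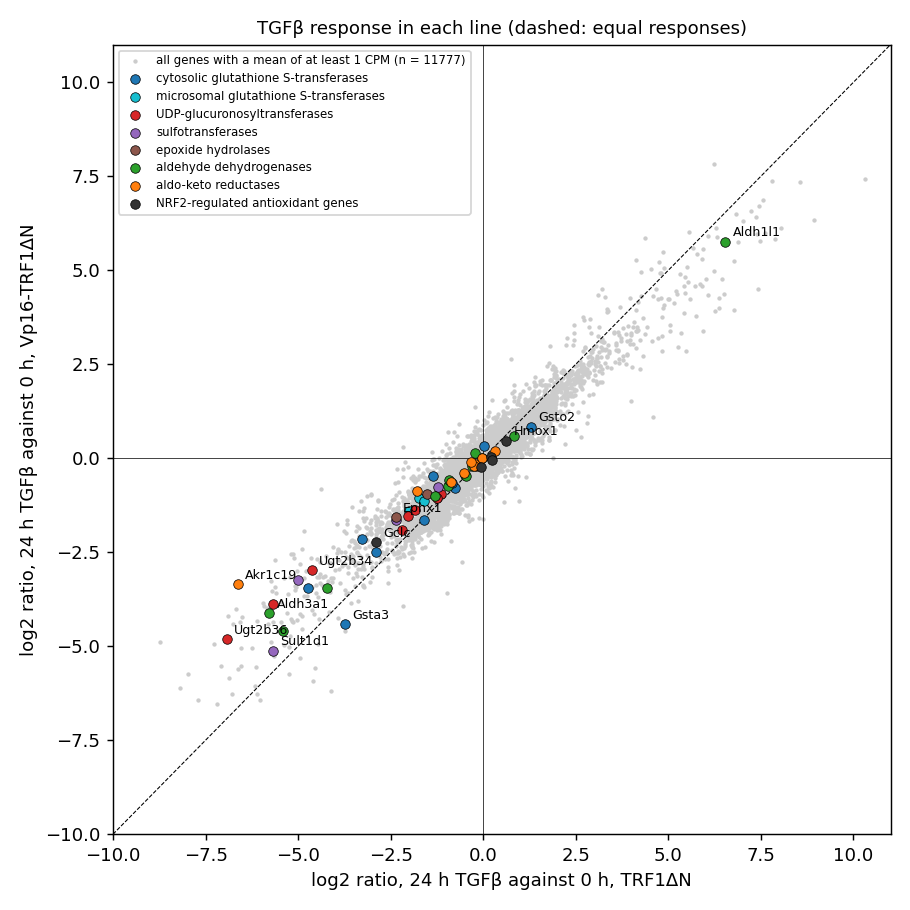
Log2 ratio of 24 h TGFβ to 0 h in the TRF1ΔN line (x) and the Vp16-TRF1ΔN line (y) for the 56 genes that averaged 1 CPM or more, coloured by family, over 11777 genes in grey; the dashed line marks equal responses. Most coloured points lie below 0 on both axes and above the dashed line, with Akr1c19 far from it and Aldh1l1 at the upper right.

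The response was also read within each line. With 1 library a group these ratios have no replicate check, and a gene was counted when it differed by at least 2-fold, had a mean of at least 1 CPM and had a 95% counting interval that excluded a ratio of 1. In the TRF1ΔN line 31 of 56 genes were lower at 24 h (55.4%, against 10.9% of 11777 genes) and 2 were higher (3.57%, against 8.4%). In the Vp16-TRF1ΔN line 25 were lower (44.6%, against 9.09%) and 1 was higher (1.79%, against 6.92%). The 25 genes lower in the Vp16-TRF1ΔN line were all among the 31 of the TRF1ΔN line, and Aldh1l1 was the gene higher in both. Median log2 ratios were -1.24 and -0.91, against -0.02 and -0.01 over all genes at that level.

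Most falls were smaller in the Vp16-TRF1ΔN line, a comparison for which these libraries give no test. Of 39 genes that fell and averaged 1 CPM or more, 35 (89.7%) had the smaller fall there, and for 23 (59%) the 95% counting interval of the difference excluded 0. Over all 3292 genes that fell at that level, 2084 (63.3%) had the smaller fall in the Vp16-TRF1ΔN line, 1110 (33.7%) with such an interval. A larger fall in that line with such an interval was counted for 440 of all genes and 0 of these. The 4 exceptions were Gsta3, Gstp1, Gsto1 and Aldh2, whose differences had intervals that held 0. Among falls of at least 2-fold, 28 of 30 of these genes (93.3%) had the smaller fall there, 20 (66.7%) with such an interval. Over all 1156 genes with falls of that size, 788 (68.2%) did, 520 (45%) with such an interval. The 4 genes that rose and averaged 1 CPM or more had the smaller ratio in the Vp16-TRF1ΔN line, with intervals that each held 0, as did 2028 of all 2954 genes that rose (68.7%) by size alone.

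In the difference of the responses, 8 of 56 genes had a value past 2-fold in favour of Vp16-TRF1ΔN (14.3%, against 1.81% of all genes) and 0 were lower (against 0.926%). They were Akr1c19, Ugt2b36, Ugt2b35, Sult1c2, Aldh3a1, Ugt2b34, Gsta4 and Gstm7. Among those with over 3 counts in every library the largest was Akr1c19, at 3.28 on the log2 scale with a prior count of 2 (95% counting interval 2.98 to 3.58), followed by Sult1c2 at 1.78 (1.57 to 1.98), Aldh3a1 at 1.66 (1.36 to 1.95) and Ugt2b34 at 1.66 (1.51 to 1.80). Ugt2b36 and Ugt2b35 rest on 1 count in the TRF1ΔN library at 24 h, so their place in this order depends on the prior count, and the interval for Ugt2b35 began at 0.01.

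**Figure D3:**
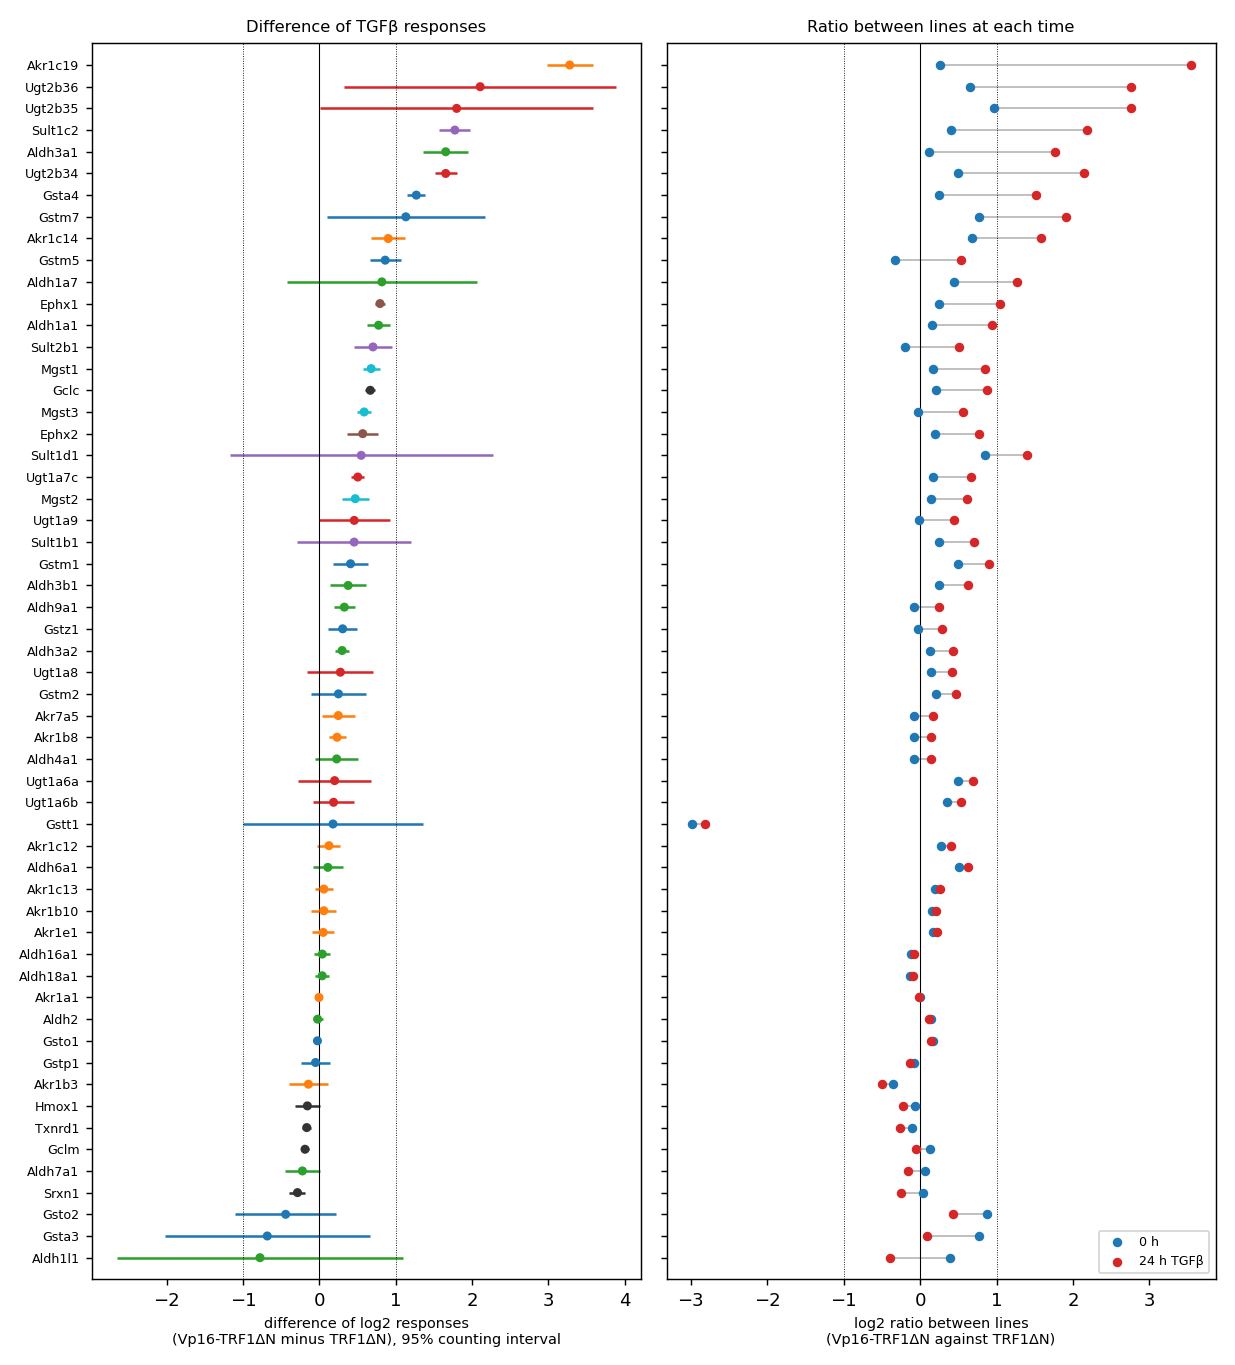
For the 56 genes that averaged 1 CPM or more, left, the Vp16-TRF1ΔN response minus the TRF1ΔN response on the log2 scale with its 95% counting interval, coloured by family; right, the log2 ratio of Vp16-TRF1ΔN to TRF1ΔN at 0 h (blue) and 24 h of TGFβ (red), joined by grey lines. Dotted lines mark 2-fold; red points reach further right than blue for most genes, and Gstt1 stands alone at the left at both times.

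Between the lines at 0 h, 0 of 56 genes were higher in Vp16-TRF1ΔN by these limits (against 0.178% of all genes) and 1 was lower (1.79%, against 0.416%), which was Gstt1. At 24 h 11 were higher (19.6%, against 2.11%) and 1 was lower (1.79%, against 1.18%), again Gstt1. The 24 h ratio and the difference of the responses share libraries, so they are not separate evidence. The 11 were the 8 genes above with Aldh1a7, Ephx1 and Akr1c14. For Akr1c19 the ratio of Vp16-TRF1ΔN to TRF1ΔN was 1.19 at 0 h and 11.8 (9.58 to 14.8) at 24 h. For Ephx1 it was 2.06 (1.98 to 2.15) at 24 h. The median log2 ratio between the lines was 0.17 at 0 h and 0.45 at 24 h, against -0.01 at both times over all genes.

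Averaged over both times, edgeR called none of these genes between the lines, 0 higher and 0 lower (against 0% of all 14305 genes in each direction). At an unadjusted p under 0.05 the test had 23 of the 70 tested genes of this set higher and 2 lower. Of all 14305 genes it had 724 higher and 1055 lower. With limma, 0 of this set were called. DESeq2 called Akr1c14 higher and Gstt1 lower among them, and 13 genes higher and 34 lower in all. Without the filter on low counts, edgeR called Akr1c14, Aldh6a1 and Gstm1 higher and Gstt1 lower, beside 28 higher and 81 lower of all 21971 genes.

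Gstt1, a theta-class transferase that acts on small halogenated compounds (chr10:75783813-75798584), differed by line more than by TGFβ. It had 165 and 81 counts in the TRF1ΔN line and 17 and 8 counts in the Vp16-TRF1ΔN line, at 0 h and 24 h, which is 3.46, 1.92, 0.394 and 0.233 CPM. Both values of the second line lay below both of the first. The level was 8.78-fold lower in Vp16-TRF1ΔN at 0 h (95% counting interval 5.32 to 15.4) and 8.24-fold lower at 24 h (3.99 to 19.7). The average log2 difference was -3.09 ± 0.26 (edgeR adjusted p = 0.235). By its unadjusted p Gstt1 ranked 10 of 14305 genes, and DESeq2 gave an adjusted p of 0.00123. Its change with TGFβ was -0.83 ± 0.25 (edgeR adjusted p = 0.0502), and 4 of 9 settings tried called it lower with TGFβ, with adjusted p from 0.0322 to 0.626 over the 9.

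Many of these genes lie near others of the set. With gaps of at most 1 Mb, 60 of the 90 genes fell into 15 groups of neighbours. On chromosome 5, Ugt2b34, Ugt2b1, Ugt2b35, Ugt2b36, Ugt2b5, Ugt2a3, Sult1b1 and Sult1d1 lie within chr5:86889767-87569027, and all 6 tested genes fell. On chromosome 9, Gclc, Gsta4, Gsta1 and Gsta2 lie within chr9:77754535-78355788, and all 4 fell. The Akr1c array on chromosome 13 (chr13:4049011-4609174) was mixed in size, from Akr1c19 and Akr1c18, which had 47, 0, 42 and 2 counts, to Akr1e1, which was not called (log2 change -0.01 ± 0.07). The groups were set by distance alone, and some join different families, such as Aldh9a1 with Mgst3 and Gclc with Gsta genes. Neighbours of the same family are related in sequence and are not independent of each other.

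Promoter sequence was read for motifs in the genes that fell and in those not called. RefSeq starts on GRCm38.p6 were matched for 77 of the 90 genes, with 93 promoters, each taken as the 250 bases before a start. Promoters of Akr1b3, Aldh1a3, Aldh1l2, Aldh2, Aldh3a1, Aldh3b2, Aldh7a1, Ephx2, Gclc, Gsta4, Hmox1, Sult4a1 and Ugt1a6b were not read. The antioxidant response element core TGACNNNGC (N is any base, both strands), which NRF2 binds, was in 7 of 93 promoters (7.53%), against 10.2% of 32851 promoters of all genes. By gene, 5 of 42 that fell held it, 0 of 2 that rose, 2 of 16 not called and 0 of 17 not tested. The following stretches, read in the direction of the gene with the match in capitals, are from Gsta3 and Aldh9a1, which fell, and from Gclm and Txnrd1, which were not called. In the last pair the core reads on the opposite strand. They lie at chr1:21240434-21240502, chr1:167349874-167349942, chr3:122245393-122245461 and chr10:82859084-82859152, all on the plus strand.
Gsta3: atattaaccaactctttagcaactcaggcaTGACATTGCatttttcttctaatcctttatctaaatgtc
Aldh9a1: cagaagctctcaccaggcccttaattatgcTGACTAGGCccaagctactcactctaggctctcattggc
Gclm: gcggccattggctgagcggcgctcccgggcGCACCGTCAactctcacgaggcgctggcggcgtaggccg
Txnrd1: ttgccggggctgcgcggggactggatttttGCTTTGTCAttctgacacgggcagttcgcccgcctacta

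Genes with this core near the start were thus found among those that fell and among those not called. The E-box CAGGTG (both strands), bound by repressors of the SNAIL and ZEB families, was in 14 of 93 promoters (15.1%), against 17.2% of all promoters. By gene, it was in 7 of 42 that fell, 0 of 2 that rose, 4 of 16 not called and 3 of 17 not tested. Among the 10 genes with the largest falls at 1 CPM or more, Akr1c19, Sult1c2 and Aldh1a1 held one, while promoters of Gsta4 and Aldh3a1 were not read. Among genes not called, Akr1b10, Aldh3b1, Aldh5a1 and Ephx3 held one. The stretch of Sult1c2 overlaps an annotated exon and is not printed. Those of Akr1c19 and Aldh1a1 lie at chr13:4233583-4233648 and chr19:20492390-20492455 on the plus strand, with the match in capitals.
Akr1c19: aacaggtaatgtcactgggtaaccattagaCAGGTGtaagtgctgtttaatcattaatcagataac
Aldh1a1: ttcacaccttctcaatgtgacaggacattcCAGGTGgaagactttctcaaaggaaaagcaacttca

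A match is a string of letters in the reference and not a measured binding site. The RefSeq start used for Akr1c19 lies inside the longer GENCODE gene, and the printed stretch overlaps no annotated exon.

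The pathway around these enzymes was read from lists of other genes. Among NRF2 regulators, 2 of 12 tested fell, 4 rose and 6 were not called, where 25.4% of all tested genes fell and 23.1% rose. Nfe2l2, which encodes NRF2, had 337 CPM at 0 h and 116 CPM at 24 h in TRF1ΔN cells, against 357 and 166 CPM in Vp16-TRF1ΔN cells (log2 change -1.32 ± 0.12, edgeR adjusted p = 0.00274). Its inhibitor Keap1 fell by 0.54 ± 0.07 on the log2 scale, and Sqstm1, an autophagy receptor that binds KEAP1, rose by 0.72 ± 0.09 (edgeR adjusted p = 0.00563 and 0.00504). Bach1, a repressor at NRF2 sites, was not called (log2 change 0.25 ± 0.10, edgeR adjusted p = 0.111). Other genes known as NRF2 targets fell in 21 of 25 cases tested and rose in 0, with a median log2 change of -0.66. Slc7a11, the cystine importer, fell by 3.68 ± 0.16 and the exporter Abcc3 by 1.93 ± 0.10, whereas Abcc1 (0.03 ± 0.06) and the ferritin gene Ftl1 (-0.03 ± 0.08) were not called.

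**Figure D4:**
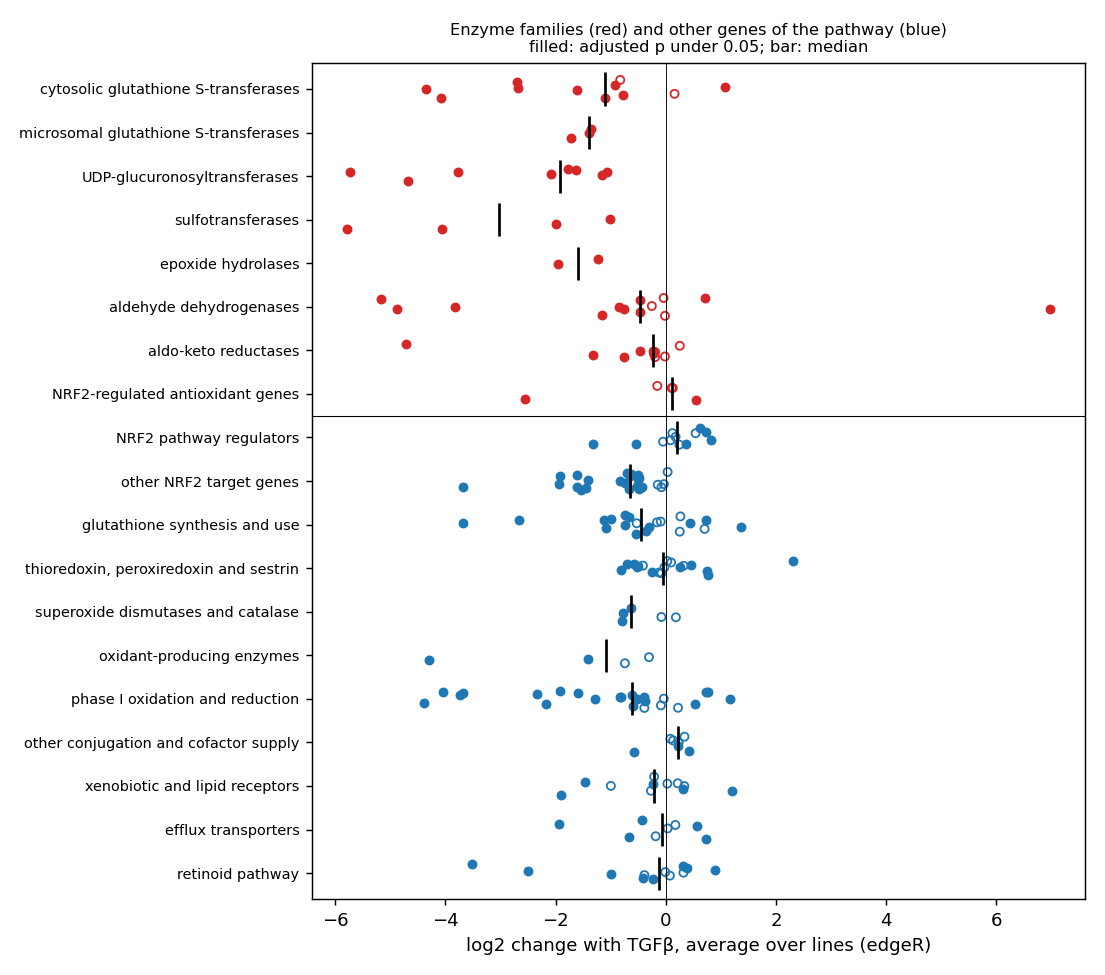
Log2 change with TGFβ averaged over the lines (edgeR) for genes that averaged 1 CPM or more, 1 point per gene, in the 8 enzyme families (red) and 11 lists of other pathway genes (blue); filled points had an adjusted p under 0.05 and bars mark medians. Family medians run from -3.03 for sulfotransferases to 0.11 for the NRF2-regulated antioxidant genes, and the median of other NRF2 targets is -0.66.

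Glutathione synthesis and use was lower in 11 of 22 tested genes and higher in 4, with Cth, which makes cysteine, at -2.66 ± 0.17 and Gpx8, a peroxidase of the endoplasmic reticulum, at 1.37 ± 0.09. That list also holds Slc7a11, counted above among the other NRF2 targets. Of 18 thioredoxins, peroxiredoxins and sestrins, 6 fell and 5 rose, not far from the 25.4% and 23.1% of all tested genes, from Prdx4 at -0.81 ± 0.08 to Msrb3, a methionine sulfoxide reductase, at 2.31 ± 0.08. Of superoxide dismutases and catalase, 3 of 5 fell, Sod2 by 0.77 ± 0.09, and Cat was not called (-0.08 ± 0.07). Phase I oxidation and reduction genes fell in 21 of 31 cases and rose in 4. The carboxylesterase Ces2e fell by 4.39 ± 0.21 and Cyp1b1, a cytochrome P450 induced through the aryl hydrocarbon receptor, rose by 1.17 ± 0.06. Ahr, which encodes that receptor, rose from 49.1 to 104 CPM and from 47.2 to 119 CPM (1.21 ± 0.09, edgeR adjusted p = 0.00177). No gene of these lists was called between the lines.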

How the data were processed

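RNA depleted of ribosomal RNA was sequenced in 4 libraries. Per the submitters' processing notes, the tools were FastQC, STAR, HTSeq and DESeq2 and the genome build was mm10. Not given in the sources used here are versions, annotation release and strand setting. The authors deposited whole-number counts per gene, and a table of log2 values. These equal the log2 of 1 plus the count over the library's DESeq2 size factor. The 4 construct rows entered neither library sizes nor tests.

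Symbols, coordinates and exon lengths came from GENCODE M21 (GRCm38, the build mm10) for 21889 genes. Counts were scaled with TMM factors and fitted with edgeR 4.0.16 in R 4.3.3 (quasi-likelihood, terms for line and TGFβ, filterByExpr). The 1 residual degree of freedom measures departure from additivity, prior degrees of freedom were 3.39 and the biological coefficient of variation was 0.0931. Two-sided p-values were adjusted with Benjamini-Hochberg over 14305 genes, and the SE is the size of the log2 change over the root of F. Ratios of a pair of libraries have exact Clopper-Pearson 95% intervals conditional on the summed counts, and differences of responses have Poisson intervals, with a prior count of 2 on the log2 scale. Intervals and floors cover counting error only. Whether the cultures were separate is not stated. The p-values set a change against departure from additivity in these libraries, moderated over genes, and not against a spread between replicates. Fits were tested on simulated data.

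Alternatives were DESeq2 1.42.0, limma 3.58.1 on the deposited log2 values, and other scalings, filters and limits. Named were 10 genes fixed by name and, among genes averaging 1 CPM or more, the 10 largest called changes per direction, the 5 largest counted in each untested comparison, and the gene of highest mean CPM in each family. From each pathway list up to 2 genes at the top and 2 at the bottom by value were eligible. Other genes were named as members of a short count, a group of neighbours or a promoter match, after their values were seen. Genes with 3 or fewer counts in a library are given by counts. The genes, the lists of pathway and cell type genes and the comparisons were chosen with earlier results of these data known.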

Additional observations from a re-analysis of the deposited data

How the results depend on the processing

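No paired analysis was possible because each group held 1 library and the labels carry no replicate numbers, beyond the line term of the additive model, which already sets 24 h against 0 h within each line. Leaving out a library was not run, since it leaves no residual degree of freedom in the additive model. Over the scalings, filters and tools tried, 40 to 50 of the tested genes fell with TGFβ (48 as reported) and none of the 53 calls took the opposite direction. The 40 were of 56 tested, where 3286 of all 11777 genes fell. The 50 were of 90, where 3881 of all 21971 genes fell. The median log2 change was -0.92 at a mean of at least 5 CPM. DESeq2 and a model without the line term each called 3 genes higher and 43 lower with TGFβ, against 5 and 48. Calls over all genes were fewer as well. They were 2284 higher and 2626 lower of 15581 with DESeq2, and 2850 and 2994 of 14305 without the line term. The reported fit had 3305 and 3631 of 14305. Between the lines edgeR without a filter called 3 higher and 1 lower and DESeq2 1 higher and 1 lower, against 0 and 0, and the cause was not tested. Counts past a fold moved with the limits by their construction. With a mean of at least 5 CPM, 0 of 45 genes were higher with TGFβ in either line, beside 2 and 1 as reported. The shares of all genes were 6.81% in TRF1ΔN and 5.27% in Vp16-TRF1ΔN. Between lines 0 were lower at 0 h or 24 h, beside 1 as reported, because Gstt1 then fell out. The shares of all genes were 0.149% and 0.568%. With no limit on the mean, 4 of 90 genes were higher with TGFβ in TRF1ΔN, against 8.55% of all genes. In Vp16-TRF1ΔN 39 were lower, against 7.31% of all genes and beside 25 as reported. Between lines 1 was higher at 0 h (against 0.815%) and 3 were lower at 24 h (against 2.2%). In the difference of responses 3 were lower, against 1.25% of all genes and beside 0 as reported. With 1.5-fold in place of 2-fold, 4 and 3 of 56 genes were higher with TGFβ in TRF1ΔN and Vp16-TRF1ΔN. Over all genes the shares were 16% and 13.9%. Between lines 7 and 22 were higher at 0 h and 24 h (against 1.12% and 5.82% of all genes), beside 0 and 11 at 2-fold. In the difference of responses 16 were higher (against 4.49% of all genes), beside 8 at 2-fold. With the 25 genes left out that share over 10% of their 50-base windows with another gene, chosen after seeing the data, 32 of 49 tested genes fell and 5 rose. Over all tested genes the shares were 25.4% and 23.1%. Genes of few counts, such as Nqo1 and Aldh1a3, are limited by depth.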

Other observations

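Other lists next to the detoxification pathway are given against the 25.4% of all tested genes that fell with TGFβ and the 23.1% that rose. Of 4 tested oxidant-producing genes, 2 fell. Cybb, the catalytic subunit of the phagocyte NADPH oxidase, dropped to 1.402 CPM from an untreated 77.5 CPM in TRF1ΔN cells, and to 7.24 from 70.2 CPM in Vp16-TRF1ΔN cells (log2 change -4.30 ± 0.60, edgeR adjusted p = 0.00657), and Xdh, xanthine dehydrogenase, fell by 1.41 ± 0.13. Of 10 efflux transporters tested, 5 fell and 2 rose. The largest fall was that of Abcc3 (-1.93 ± 0.10), also counted among the other NRF2 targets, then Abcc4 at -0.66 ± 0.06, and the drug exporter Abcb1b was at 0.73 ± 0.15. Retinoid genes went both ways, with 5 of 12 lower and 3 higher. Rbp4, the plasma retinol carrier, went from 134 to 18.5 CPM and from 134 to 30.4 CPM (log2 change -2.50 ± 0.19), while Rdh10, which oxidises retinol to retinal, went from 123 to 218 CPM and from 113 to 221 CPM (0.90 ± 0.07). Among xenobiotic and lipid receptors 4 of 13 fell and 2 rose. Hnf4a, also counted among the hepatocyte genes, was 1 of those that fell. Of 7 tested genes of other conjugation steps and cofactor supply, 1 fell, Ugp2 at -0.57 ± 0.06, which makes UDP-glucose, and 2 rose, among them Papss2 at 0.43 ± 0.08, which makes the sulfate donor.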
